A study of Mus musculus with 5 samples.

Results

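Mitochondrial ribosomal proteins are the protein subunits, encoded in the nucleus, of the ribosome that works inside mitochondria. The genes were chosen by name, as mouse symbols made of Mrpl or Mrps, a number and at most 1 further letter, among probe sets with exactly 1 annotated symbol. The rule found 76 genes, held by 156 probe sets, among 18193 genes with such a probe set. Each gene was represented by its probe set with the highest mean over all arrays. Another 4 probe sets carry a symbol of this kind beside a second gene and were left out.

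The series holds whole blood RNA of adult female F1 mice, 1 Affymetrix array per sample. In 3 samples the parents were DBA/2J and FVB/NJ (DBAxFVB F1), and in 2 samples AKR/J and FVB/NJ (AKRxFVB F1), so all samples shared FVB/NJ as a parent strain. All blood was drawn from the heart under Avertin, an anaesthetic. The question was how baseline expression differs between the crosses, and the labels name no treatment, transgene or age beyond adult. Whether each sample was a mouse of its own is not in the labels, so p-values measure the spread among these samples only, part or all of which may be technical.

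The mitochondrial ribosome makes the few proteins encoded in mitochondrial DNA, all of them subunits of the respiratory chain complexes or of ATP synthase. It has a large subunit, which joins amino acids, and a small subunit, which reads the messenger RNA. Part of its proteins descend from bacterial ribosomal proteins and part occur only in mitochondria. Red cells lose their mitochondria as they mature, so in blood the transcripts come from leukocytes, platelets and young red cells. In structures of mammalian mitochondrial ribosomes, the products of Mrps18a and Mrps30 lie in the large subunit despite their names. Mrps36 is now known as a subunit of the ketoglutarate dehydrogenase complex and is counted in neither. On this basis 49 of the 76 genes belong to the large subunit and 26 to the small one.

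Promoters are shown for the 3 genes with the smallest p between the crosses among those whose promoter window holds a motif searched for, to set the sequence beside genes whose values follow. The motifs were those of factors known to act on genes of mitochondrial function: GCGCATGC of NRF1, CCGGAAG of ETS factors such as GABP, and AAGATGGC of YY1, each on both strands. The GCGCATGC motif and its reverse complement can overlap in a single stretch. RefSeq windows of build GRCm38.p6, 300 bases around a gene's start, were available for 67 of the 76 genes. The windows lie at chr16:84735195-84735494 on the minus strand for Mrpl39, chr11:94653541-94653840 on the plus strand for Mrpl27 and chr5:31613701-31614000 on the plus strand for Mrpl33. They read 5′ to 3′ along the gene, with motif matches in capitals.
Mrpl39: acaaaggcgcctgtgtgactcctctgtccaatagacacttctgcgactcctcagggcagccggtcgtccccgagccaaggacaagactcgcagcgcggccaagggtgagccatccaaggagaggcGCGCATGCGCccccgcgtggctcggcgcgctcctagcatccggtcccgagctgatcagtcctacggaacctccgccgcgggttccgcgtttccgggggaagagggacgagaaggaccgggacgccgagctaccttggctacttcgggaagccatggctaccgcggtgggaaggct
Mrpl27: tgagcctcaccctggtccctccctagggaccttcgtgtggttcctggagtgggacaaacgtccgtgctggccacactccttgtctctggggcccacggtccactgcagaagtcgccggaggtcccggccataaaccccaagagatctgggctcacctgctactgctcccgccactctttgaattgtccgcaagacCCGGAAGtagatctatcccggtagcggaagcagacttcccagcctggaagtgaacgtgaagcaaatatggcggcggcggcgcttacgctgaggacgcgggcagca
Mrpl33: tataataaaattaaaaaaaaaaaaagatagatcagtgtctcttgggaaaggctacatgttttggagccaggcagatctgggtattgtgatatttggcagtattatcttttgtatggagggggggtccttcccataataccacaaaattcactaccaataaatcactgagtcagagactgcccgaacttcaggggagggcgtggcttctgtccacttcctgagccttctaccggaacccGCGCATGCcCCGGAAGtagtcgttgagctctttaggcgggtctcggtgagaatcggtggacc

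At least 1 motif was found in 37 of 73 windows of these genes, or 50.7%, against 13.3% of all 32851 windows in the RefSeq table. The ETS letters were in 34.2% of the windows of mitochondrial ribosomal protein genes and 8.86% of all windows. The YY1 letters were in 16.4%, against 2.75% of all, and the NRF1 letters in 8 of 73 windows, against 2.71% of all. These are matches of letters and not known binding sites. Among tested genes with a window, 12 of 26 that read lower in DBAxFVB F1 and 20 of 33 that read higher held a motif. The windows of Mrpl44 and Mrps14, the genes with the smallest p, held none of these letters.

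Signals of the mitochondrial ribosomal protein genes were low on all 5 arrays, though 47 of the 76 lay above the median of all genes. Their median log2 signal was 3.06, 3.06 and 3.13 on DBAxFVB F1 arrays 1, 2 and 3, against 3.06 and 3.12 on AKRxFVB F1 arrays 1 and 2. Over all genes, each read by its probe set with the highest mean, the medians of the 5 arrays lay between 2.84 and 2.94. A mean of 4 or more was reached by 13 of the 76 genes, or 17.1%, against 19.1% of all genes. Probe sets differ in how well they bind, so these signals do not order the genes by transcript amount. A probe set was tested if its mean over the arrays was at least 2.51, the middle value among probe sets other than controls, and 66 of the 76 genes passed. The 10 others were Mrpl1, Mrpl18, Mrpl22, Mrpl42, Mrpl54, Mrps6, Mrps10, Mrps11, Mrps22 and Mrps28. Signals this close to the bottom of the scale have no stated limit of detection.

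Differences between the crosses were mostly small for these genes, and none was called, as held for every gene on the array. Differences are log2 signals, DBAxFVB F1 minus AKRxFVB F1, with limma's moderated standard error (SE) after ±. Limma called 0 of 66 tested genes at a Benjamini-Hochberg adjusted p below 0.05, against 0.0% of all 12421 genes, and 2 lower and 0 higher at an unadjusted p below 0.05, against 6.4% lower and 3.61% higher of all genes. Of the 66 genes, 31 read lower and 35 higher in DBAxFVB F1, and lower values made up 41.7% over all genes. The median difference was 0.02 over the 66 genes, with differences from -0.75 to 0.44, against 0.05 over all genes tested. The median turned negative under other scalings, at -0.04 with cyclic loess, -0.03 with median centring and -0.01 with quantile normalization, with 39, 38 and 35 of 66 genes lower. The median over all probe sets tested fell too, from 0.044 to 0.0007, 0.0009 and 0.033 in the same order. The 41.7% above holds for the deposited scaling only. Including the 10 genes below the filter, the median was 0.01 and 36 of 76 read lower. The crosses did not overlap for 9 genes on the lower side, against 11.9% of all genes, and for 4 on the higher side, against 17.0% of all genes.

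The arrays limit how small a change could be seen. The SE of the 66 differences ran from 0.14 to 0.40 with a median of 0.19. Limma's 95% interval of the difference lay inside a fold of 2 in either direction for 63 of them, or 95.5%, against 80.6% of all genes tested. The 3 exceptions were Mrps14, with an interval from -1.28 to -0.22, Mrpl39, from -1.25 to 0.00, and Mrps16, from -0.50 to 1.38. These are intervals of signals, most of them near the bottom of the scale, and do not bound the change in transcript amount. Mean signals had a median of 3.16 for the 66 genes and 3.32 over all genes tested. The highest were 6.17 and 13.5, so the 2 sets differ in level.

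**Figure D1:**
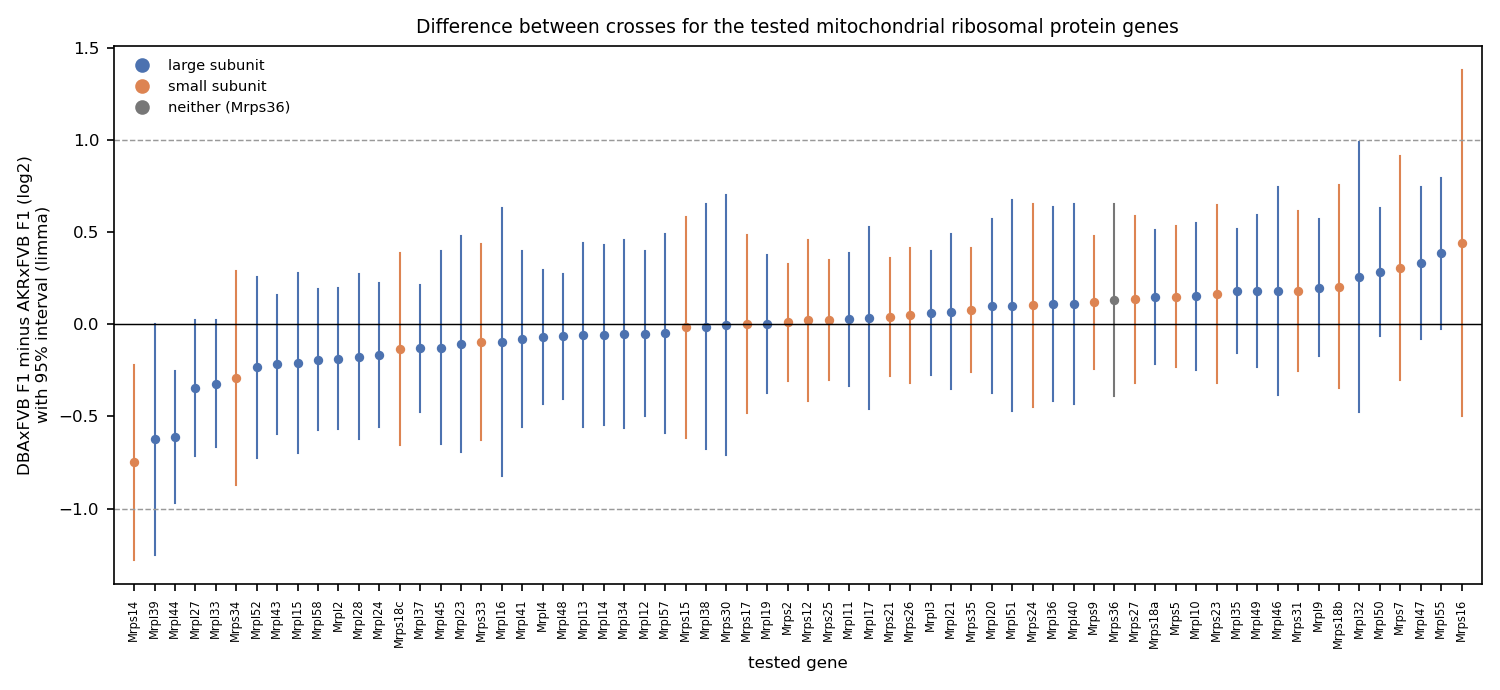
Difference between the crosses (vertical axis, log2, DBAxFVB F1 minus AKRxFVB F1) for the 66 tested genes, sorted, with points for the limma estimate and lines for its 95% interval; colours give the subunit in structures and dashed lines a fold of 2. Most points lie near 0, the lowest at -0.75 (Mrps14) and the highest at 0.44 (Mrps16).

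Large subunit genes read lower slightly more often than not. Of 44 tested, 25, or 56.8%, were lower in DBAxFVB F1, against 41.7% of all genes, and the median difference was -0.05. Of 21 tested small subunit genes, 6, or 28.6%, were lower and the median was 0.05. No test of the difference between the subunits was made, and the small subunit median was -0.02 after cyclic loess normalization. Genes with a bacterial homologue had a median of 0.02 over 37 tested, and those found only in mitochondria one of -0.01 over 25.

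Mrpl44, which encodes a large subunit protein with a fold like that of ribonuclease III, had the smallest p. Its log2 signal was 3.08, 3.08 and 2.95 in DBAxFVB F1, against 3.61 and 3.69 in AKRxFVB F1. The crosses did not overlap, and the arrays within a cross lay close together. The difference was -0.61 ± 0.15 (limma adjusted p = 0.243). Its 2 other tested probe sets did not repeat it. The brighter of them read 2.56, 3.03 and 3.18 in DBAxFVB F1, against 3.13 and 2.64 in AKRxFVB F1, with a difference of 0.04 ± 0.23. The dimmer read 2.64, 2.73 and 2.56 in DBAxFVB F1, against 2.63 and 2.75 in AKRxFVB F1, with a difference of -0.05 ± 0.14. In both the crosses overlapped.

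Mrps14, a small subunit protein with a bacterial homologue, showed the same contrast between probe sets. Its probe set with the highest mean read 3.35, 2.68 and 3.03 in DBAxFVB F1, against 3.93 and 3.61 in AKRxFVB F1. All DBAxFVB F1 arrays lay below both AKRxFVB F1 arrays, with a difference of -0.75 ± 0.23 (limma adjusted p = 0.323). The second probe set read 3.08, 3.09 and 2.94 in DBAxFVB F1, against 2.90 and 2.66 in AKRxFVB F1, higher on every DBAxFVB F1 array, with a difference of 0.25 ± 0.15. Averaged over tested probe sets, the difference was -0.25 for Mrps14 and -0.21 for Mrpl44.

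Mrpl39, a large subunit protein related to part of threonyl-tRNA synthetase, had the next smallest p. It read 4.19, 4.13 and 4.67 in DBAxFVB F1, against 5.20 and 4.71 in AKRxFVB F1. DBAxFVB F1 array 3 and AKRxFVB F1 array 2 nearly met, at 4.67 and 4.71. The difference was -0.62 ± 0.27 (limma adjusted p = 0.483), or -0.38 without AKRxFVB F1 array 1. Its other probe set had a mean of 2.37, below the filter.

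Mrpl27, a homologue of bacterial L27, which lies close to the catalytic centre, read 2.74, 2.48 and 2.69 in DBAxFVB F1, against 2.85 and 3.11 in AKRxFVB F1. Mrpl33, a homologue of bacterial L33, read 2.47, 2.75 and 2.68 in DBAxFVB F1, against 2.94 and 2.97 in AKRxFVB F1. Neither overlapped between the crosses, and both lay near the filter. Their differences were -0.35 ± 0.16 and -0.32 ± 0.15 (limma adjusted p = 0.509 for each), and that of Mrpl27 was -0.21 without AKRxFVB F1 array 2. Next in order of p on this side were Mrpl43, at -0.22 ± 0.16, Mrpl58, the subunit that frees stalled ribosomes, at -0.19 ± 0.16, and Mrps34, at -0.29 ± 0.25, with limma adjusted p-values from 0.673 to 0.714. Mrps34 overlapped between the crosses, while Mrpl43 and Mrpl58 did not.

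On the higher side, Mrpl55, a homologue of bacterial L31, had the smallest p. It read 2.97, 3.41 and 3.16 in DBAxFVB F1, against 2.85 and 2.74 in AKRxFVB F1. The crosses did not overlap, though DBAxFVB F1 array 1 and AKRxFVB F1 array 1 were 2.97 and 2.85. The difference was 0.38 ± 0.18 (limma adjusted p = 0.509). Mrpl50, found only in mitochondria, read 2.60, 2.82 and 2.75 in DBAxFVB F1, against 2.32 and 2.56 in AKRxFVB F1, a difference of 0.29 ± 0.15. Mrpl47, a homologue of bacterial L29, read 3.02, 3.37 and 3.32 in DBAxFVB F1, against 3.05 and 2.76 in AKRxFVB F1, a difference of 0.33 ± 0.18. Mrpl50 did not overlap between the crosses, while Mrpl47 did. Mrpl9 differed by 0.20 ± 0.16, Mrpl35 by 0.18 ± 0.15 and Mrpl49 by 0.18 ± 0.18. Limma adjusted p-values of these 5 genes ran from 0.553 to 0.743.

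Mrps16, a small subunit gene in which human mutations cause a deficiency of oxidative phosphorylation, was high on 1 array. It read 3.10, 3.32 and 4.56 in DBAxFVB F1, against 3.08 and 3.35 in AKRxFVB F1. Only DBAxFVB F1 array 3 stood above the others, and the difference of 0.44 ± 0.40 became -0.01 without it. Mrps7, in the head of the small subunit, read 3.20, 3.80 and 4.04 in DBAxFVB F1, against 3.47 and 3.27 in AKRxFVB F1, a difference of 0.31 ± 0.26. Mrps7 overlapped between the crosses, its lowest array being DBAxFVB F1 array 1.

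**Figure D2:**
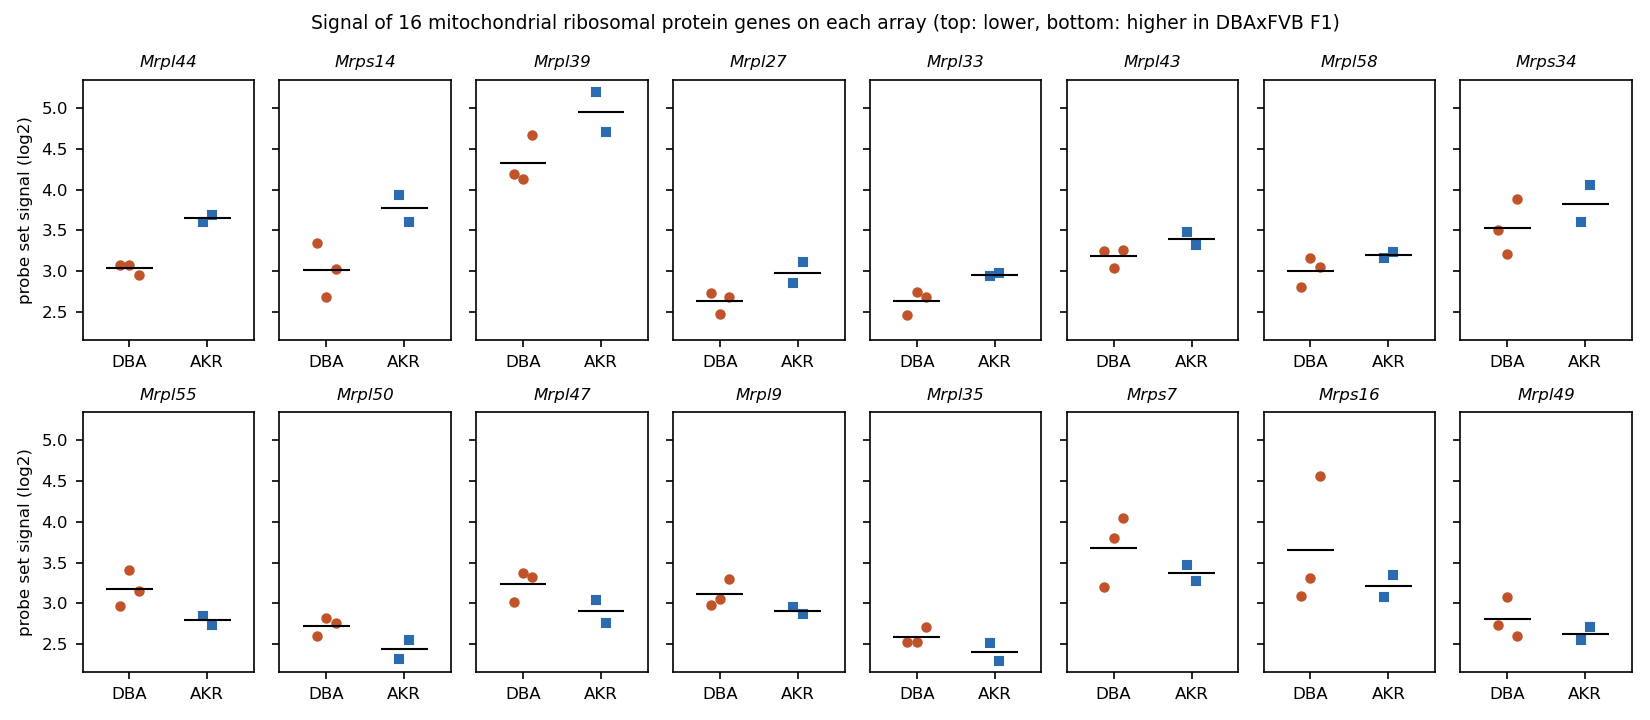
Log2 signal (vertical axis) on each array for the 8 genes with the smallest p on the lower side (top row) and the higher side (bottom row). Circles are the 3 DBAxFVB F1 arrays and squares the 2 AKRxFVB F1 arrays, with bars at the group means. Mrpl44 has closely grouped arrays at 2.95 to 3.08 in DBAxFVB F1 and 3.61 to 3.69 in AKRxFVB F1, and in Mrps16 a single DBAxFVB F1 array stands at 4.56.

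The homologues of bacterial S18 each moved little. Mammals have 3 of them, and their products sit at different places in the ribosome, that of Mrps18a in the large subunit and those of Mrps18b and Mrps18c in the small one. Mrps18a read 2.61, 2.90 and 2.61 in DBAxFVB F1, against 2.47 and 2.65 in AKRxFVB F1, a difference of 0.15 ± 0.16. Mrps18b read 2.83, 2.90 and 3.57 in DBAxFVB F1, against 2.84 and 2.94 in AKRxFVB F1, a difference of 0.20 ± 0.24. Mrps18c read 3.63, 3.27 and 3.73 in DBAxFVB F1, against 3.91 and 3.44 in AKRxFVB F1, a difference of -0.14 ± 0.22. The crosses overlapped for all 3 genes, and Mrps18b, like Mrps16, was highest on DBAxFVB F1 array 3, without which its difference was -0.03.

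Mrpl12, Mrps12, Mrpl3 and Mrpl41 differed by less than their SE. Mrpl12, the stalk protein that also binds the mitochondrial RNA polymerase, averaged 2.65 ± 0.24 (SD, n = 3) in DBAxFVB F1 and 2.70 ± 0.28 (SD, n = 2) in AKRxFVB F1. Mrps12, of the decoding centre, averaged 3.13 ± 0.25 (SD, n = 3) in DBAxFVB F1 and 3.11 ± 0.10 (SD, n = 2) in AKRxFVB F1. Mrpl3, close to the catalytic centre, averaged 3.15 ± 0.03 (SD, n = 3) in DBAxFVB F1 and 3.09 ± 0.07 (SD, n = 2) in AKRxFVB F1. The arrays of the crosses overlapped for each of these. Mrpl41 averaged 3.72 ± 0.26 (SD, n = 3) in DBAxFVB F1 and 3.79 ± 0.01 (SD, n = 2) in AKRxFVB F1. Mrps22, another gene of human mitochondrial disease, had a mean of 2.15 ± 0.09 (SD, n = 3) in DBAxFVB F1 and 2.25 ± 0.35 (SD, n = 2) in AKRxFVB F1 and was not tested. With Mrps10, which averaged 2.19 in DBAxFVB F1 and 2.10 in AKRxFVB F1, and Mrpl1, which averaged 2.24 in DBAxFVB F1 and 2.31 in AKRxFVB F1, it had the lowest signals among the 76 genes.

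The remaining large subunit genes spread on both sides of 0. Mrpl52 differed by -0.23, Mrpl2, near the catalytic centre, by -0.19 and Mrpl24 by -0.17. Mrpl37, Mrpl45, which anchors the ribosome to the inner membrane, Mrpl23, Mrpl4, Mrpl48, Mrpl13, Mrpl14 and Mrpl34 lay between -0.13 and -0.05. Mrpl19, Mrpl11, Mrpl17, Mrpl20, Mrpl51, Mrpl36, Mrpl10 and Mrpl46 lay between 0.00 and 0.18. Among these, the crosses did not overlap for Mrpl37, with 3.17, 3.06 and 3.19 in DBAxFVB F1, against 3.27 and 3.27 in AKRxFVB F1. The same held for Mrpl28, with 4.11, 4.22 and 4.15 in DBAxFVB F1, against 4.27 and 4.41 in AKRxFVB F1. Of the remaining small subunit genes, Mrps33 differed by -0.10 and Mrps17 by -0.00. Mrps2, Mrps25, Mrps21, Mrps26, Mrps35, Mrps24, Mrps27, Mrps5, Mrps23 and Mrps31 lay between 0.01 and 0.18.

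The strongest signal came from a probe set of Mrpl38, a large subunit gene found only in mitochondria. It read 5.91, 6.24 and 6.36 in DBAxFVB F1, against 6.17 and 6.18 in AKRxFVB F1, a difference of -0.01 ± 0.29. The other probe sets of Mrpl38 had means of 2.70 and 1.93, so the signal was not shared between probe sets of the gene. The next highest were Mrps36, at 4.84 ± 0.15 (SD, n = 3) in DBAxFVB F1 and 4.71 ± 0.10 (SD, n = 2) in AKRxFVB F1, and Mrpl57, at 4.77 ± 0.16 (SD, n = 3) in DBAxFVB F1 and 4.81 ± 0.21 (SD, n = 2) in AKRxFVB F1.

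Probe sets of the same gene often differed in direction. Of 16 genes with 2 or more tested probe sets, 6, or 37.5%, had all of them on the same side of 0, against 51.8% of 4242 such genes on the array. Over all 87 tested probe sets of mitochondrial ribosomal protein genes, limma gave 2 lower and 2 higher at an unadjusted p below 0.05, against 6.79% lower and 3.59% higher of 22519 probe sets. The 2 lower were the Mrpl44 and Mrps14 probe sets above. The 2 higher were another probe set of Mrpl21, at 0.46 ± 0.18, whose other probe sets lay at 0.07 and -0.11, and a second one of Mrps9, at 0.48 ± 0.16, beside 0.12. This probe set of Mrps9 read 3.08, 3.02 and 3.33 in DBAxFVB F1, against 2.55 and 2.78 in AKRxFVB F1, with no overlap. Mrps9 was singled out after its values were seen. In Mrpl28 the differences were -0.18, -0.13 and 0.50, and in Mrpl15 they were -0.21, 0.02, 0.40 and 0.06.

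**Figure D3:**
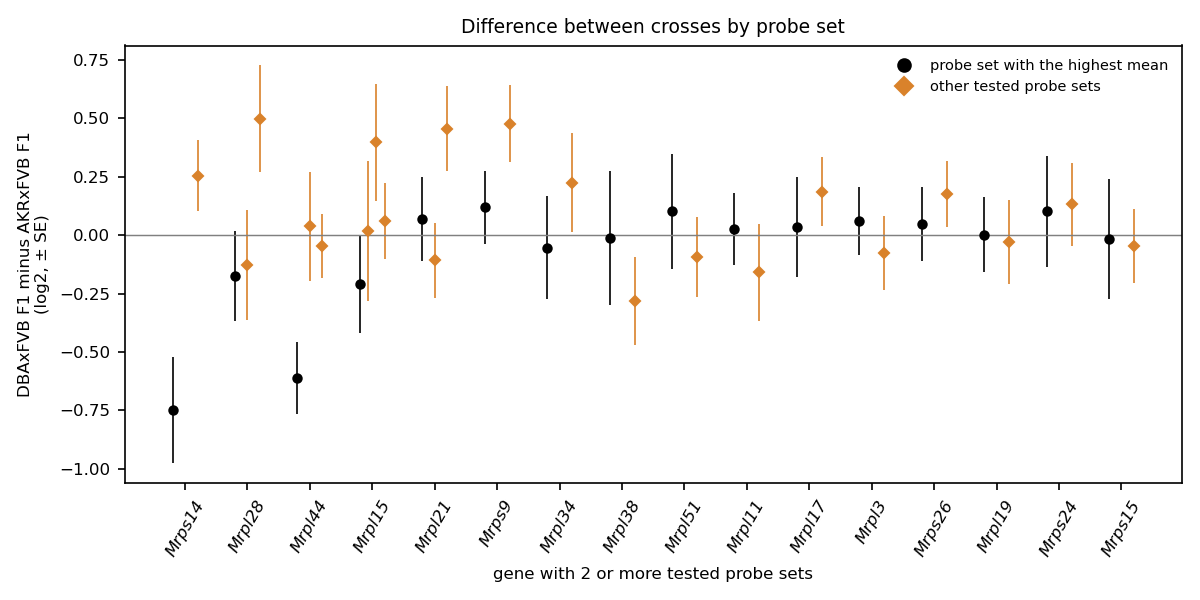
Difference between the crosses (vertical axis, log2, DBAxFVB F1 minus AKRxFVB F1, bars are ± SE) for each tested probe set of the 16 genes with 2 or more. Circles mark the probe set with the highest mean and diamonds the others. For Mrps14 and Mrpl44 the circles lie at -0.75 and -0.61 and the diamonds between -0.05 and 0.25.

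Ranges within a cross were about as wide for these genes as for all genes. Their medians were 0.34 in DBAxFVB F1 and 0.20 in AKRxFVB F1, against 0.38 and 0.20 over all genes. In 59 of the 66, the range over the arrays of at least 1 cross exceeded the difference between the crosses, or 89.4%, against 84.0% of all genes. The widest ranges in DBAxFVB F1 were 1.46 for Mrps16, 1.04 for Mrpl16, with 3.36, 3.76 and 4.40, and 0.93 for Mrpl32, whose product is cut by a mitochondrial protease before assembly, with 3.94, 4.86 and 4.04. In AKRxFVB F1 the arrays differed by 0.93 for Mrps15, with 2.60 and 3.54, by 0.92 for Mrps30, with 3.25 and 2.33, and by 0.66 for Mrpl40, with 3.43 and 2.77. DBAxFVB F1 array 3 was the highest of its cross for 33 of the 66 genes and array 1 for 10, against 40.8% and 30.7% of all genes. The median difference of array 3 from array 1 was 0.11 over the 66 genes and 0.02 over all genes.

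Array 3 of DBAxFVB F1 stood apart in its hybridisation controls. Its 18 hybridisation control probe sets had a median of 7.99, against 10.01 to 10.12 on the other 4 arrays, and its 3-prime minus 5-prime differences, a sign of RNA quality, were 1.32 for Actb and 1.33 for Gapdh. For Actb the difference was 0.82 and 0.68 on DBAxFVB F1 arrays 1 and 2, against 1.22 and 1.03 on the AKRxFVB F1 arrays. For Gapdh it was 0.62 and 0.58 on DBAxFVB F1 arrays 1 and 2, against 1.04 and 0.73 on the AKRxFVB F1 arrays, so AKRxFVB F1 array 1 was also high in both. The part of these values in the high readings of Mrps16 and Mrps18b was not tested. Without this array 33 of 66 genes read lower, limma called 0 at an adjusted p below 0.05 and 3 lower and 0 higher at an unadjusted p below 0.05, and the median difference was 0.00.

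Medians of gene groups were also read array by array. Relative to each gene's mean over the 5 arrays, the median of the 66 genes was -0.04, -0.01 and 0.05 on the DBAxFVB F1 arrays, against 0.01 and 0.00 on the AKRxFVB F1 arrays. The median of all genes ran from -0.05 to 0.02 over the 5 arrays and that of ribosome assembly genes from -0.06 to 0.05, so a median this near 0 was not particular to mitochondrial ribosomal protein genes. Blood cells were present by their markers, with Alas2 of the red cell lineage between 13.5 and 13.6 and the platelet gene Pf4 between 8.53 and 11.3 on all arrays. Red cell lineage markers differed widely in signal. Slc4a1 lay between 9.13 and 10.7, but Hba-a1 between 2.34 and 2.68 and Rhag, below the filter, between 2.17 and 3.03. B cell markers, with 8 of 9 lower in DBAxFVB F1, had medians of -0.65, -0.38 and 0.01 on the DBAxFVB F1 arrays, against 0.92 and -0.06 on the AKRxFVB F1 arrays. Of 9 platelet markers, 8 read lower in DBAxFVB F1. Their medians were 0.24, 0.42 and -1.30 on the DBAxFVB F1 arrays, against -0.41 and 0.85 on the AKRxFVB F1 arrays. Median gene differences between the crosses were -0.63 for B cell and -0.52 for platelet markers. They were -0.27 for T cell, -0.17 for cytotoxic, 0.11 for neutrophil, -0.10 for monocyte and 0.03 for erythroid markers. Single genes spread wider, from -1.38 to 0.14 among T cell markers and from -1.49 to 0.69 among monocyte markers. Cardiac muscle markers, which a heart puncture could bring, had 3 of 8 genes above the filter, with Actc1 at 4.13, 3.28 and 3.68 in DBAxFVB F1, against 2.70 and 3.19 in AKRxFVB F1. The other 2 differed in opposite directions, Mb by 0.42 ± 0.22 and Tnnt2 by -0.15 ± 0.17. Of the 5 markers below the filter, none exceeded 2.87 on any array. Over all 8 markers, 2 read lower in DBAxFVB F1, Tnnt2 and Ryr2, and the median difference was 0.35. Among those below the filter, differences ran from -0.19 for Ryr2 to 0.54 for Tnni3. The part of these markers in the values above was not tested. In whole blood, fewer cells of a type and less RNA per cell cannot be told apart.

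Cytosolic ribosomal proteins and nuclear-encoded respiratory chain subunits are the groups nearest in function. Cytosolic ribosomal protein genes had 38 of 40 tested genes lower in DBAxFVB F1 and a median of -0.78, and respiratory chain genes 60 of 75 and -0.34. These beside 31 of 66 and 0.02 for mitochondrial ribosomal protein genes are descriptions, with no test between the groups. The groups also differed in signal, with median means of 8.77, 5.48 and 3.16. For probe sets with a mean from 3 to 4, the median difference was 0.00 over 31 mitochondrial ribosomal protein genes, -0.21 over 16 respiratory chain genes and 0.08 over all 4651 genes in that range. From 4 to 5 it was 0.10 over 12, -0.44 over 12 and 0.05 over 1932.

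**Figure D4:**
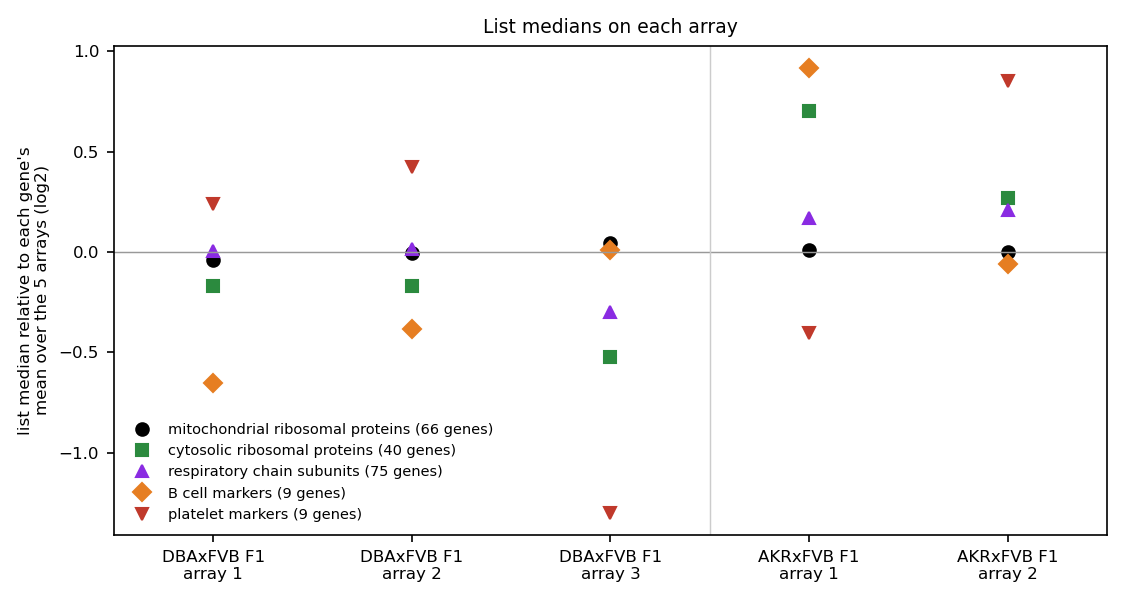
Median of each gene group on each array (vertical axis, log2, relative to each gene's mean over the 5 arrays), with the DBAxFVB F1 arrays left of the line and the AKRxFVB F1 arrays right of it. The circles of the mitochondrial ribosomal protein genes lie between -0.04 and 0.05, where the median of all genes, not drawn, lies between -0.05 and 0.02. B cell markers run from -0.65 to 0.92 and platelet markers from -1.30 to 0.85.

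Other genes of mitochondrial gene expression were read from lists of known components. None of the lists had a gene past the limma threshold, as held for all genes tested. Over all genes, 7245 of 12421 read higher in DBAxFVB F1, a share to set beside the counts in this paragraph and the next. Of mitochondrial ribosome subunits that do not carry an Mrp name, Ptcd3 differed by 0.31 ± 0.15, Dap3 by -0.17 ± 0.22 and Gadd45gip1 by -0.05 ± 0.15. Of 6 tested translation factors 5 read higher, with Gfm2, a ribosome recycling factor, at 0.31 ± 0.18, the elongation factor Tsfm at 0.12 ± 0.24 and Lrpprc, which stabilises mitochondrial messenger RNA, at 0.06 ± 0.19. Of 12 tested ribosome assembly genes 7 read higher. The helicase Ddx28 was at 0.32 ± 0.15 and the ribosomal RNA methyltransferase Mrm2 at 0.31 ± 0.16. Mtg2, a GTPase of large subunit assembly, read 5.07, 4.94 and 6.83 in DBAxFVB F1, against 4.57 and 4.65 in AKRxFVB F1, highest again on DBAxFVB F1 array 3. Its difference was 1.0 ± 0.54 (limma adjusted p = 0.565).

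Of 12 tested mitochondrial aminoacyl-tRNA synthetases, the enzymes that load tRNAs, 10 read higher, with a median of 0.15, against 0.05 over all genes. Lars2 was at 0.49 ± 0.23, Cars2 at 0.29 ± 0.17 and Sars2 at 0.41 ± 0.29. Among 13 tested genes of mitochondrial DNA transcription and maintenance, 10 read higher, and Ssbp1 had the lowest difference. Ssbp1, which coats single-stranded mitochondrial DNA, read 3.21, 2.47 and 2.83 in DBAxFVB F1, against 4.90 and 3.71 in AKRxFVB F1. The crosses did not overlap, and the difference was -1.47 ± 0.36 (limma adjusted p = 0.236). Polg2, the accessory subunit of the mitochondrial DNA polymerase, was at 0.36 ± 0.14 (limma adjusted p = 0.436) and Gabpb1, a subunit of GABP, at 0.31 ± 0.17.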

How the data were processed

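Blood came from the heart, and its Trizol RNA was amplified in 2 cycles before labelling, per the labels' protocols. Groups follow the cross in the source label, and replicate numbers follow the titles. The deposited values, 1 for each probe set on each array, were taken as log2 from their range of 1.29 to 14.8. MAS5 and RMA are named, per the submitters' processing notes, without saying which gave the values, so background correction and normalization are not known. Probe sets with 1 symbol (34958 of 45101) were named from the platform annotation. No coordinates of probe sets are given, because the build behind that annotation is not given in the sources used here.

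The 22519 non-control probe sets with a mean of at least 2.51 entered limma (version 3.58.1, R version 4.3.3), using lmFit and eBayes with a variance trend. The model held the cross alone and left 3 residual degrees of freedom. Tests were two-sided, with Benjamini-Hochberg adjustment over all of them. For 3 arrays against 2 the number of arrays limits the precision. The fit was also run on simulated data with independent normal values, and no result here rests on it. Genes were named by rule: the 8 smallest p in each direction, the 3 highest and 3 lowest signals, a fixed set of genes with known roles, up to 5 genes whose probe sets differ in sign, the 3 widest ranges within each cross, and up to 3 genes per related list. The remaining genes are named to account for all of them. The genes and lists were chosen with earlier results of these data known. Alternatives were 3 normalizations, 2 filters, 3 variance settings, a replicate block, each array left out, and 2 other ways of choosing probe sets. Python 3.11.15 with pandas 2.3.3 and matplotlib 3.10.9 made tables and plots.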

Additional observations from a re-analysis of the deposited data

How the results depend on the processing

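Of the 16 alternatives, those without an AKRxFVB F1 array kept only 1 array of that cross and are not counted here. In every other alternative, limma called 0 mitochondrial ribosomal protein genes at an adjusted p below 0.05. In these it also called 0 of all features tested, so the result was not particular to these genes. At an unadjusted p below 0.05 there were 1 to 5 of these genes lower and 0 to 2 higher. Over all 22519 probe sets, 2337 passed that threshold in either direction as reported, 2270 with median centring and 2700 with array weights. At that threshold 4 of these genes were lower with array weights, cyclic loess, quantile normalization or the replicate block, and 5 with median centring, against 2 as reported. Plain probe sets are those named by a number and _at alone. With these only, 48 genes were tested and 1 was lower. Mrpl44 was then read by another probe set, at -0.047. Genes higher at that threshold numbered 1 with the mean over probe sets, and 0 to 2 with a DBAxFVB F1 array left out. DBAxFVB F1 array 1 gave the 2 when left out. With the filter at the 75th percentile, 19 of 34 tested genes read lower. The median difference of 0.016 became -0.042 with cyclic loess, -0.052 with the stricter filter, -0.027 with median centring, and -0.020 to 0.035 with an array left out. That of the large subunit, -0.050, became -0.093 with median centring and -0.063 to 0.0063 with an array left out, the highest without AKRxFVB F1 array 1. Median centring moves every difference by the same amount, and the stricter filter only changes which genes are counted. Over all probe sets tested, the median of 0.044 became 0.0007 with cyclic loess, 0.011 with the stricter filter and 0.0009 with median centring. The cause of the other shifts was not tested. Correlations of deviations from the cross means were -0.26 for number 1 and 0.17 for number 2 over 22519 probe sets. The deviations of the 2 AKRxFVB F1 arrays mirror each other, so these values cannot show whether array numbers pair the crosses. The replicate block rests on the arrays numbered 1 and 2, and with it 2438 probe sets had an unadjusted p below 0.05, against 2337 without it.

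Of 34 named genes tested, 17 kept their direction under every alternative run, and 41 of 518 values turned. Many of the 518 could not turn. Changing the filter, dropping the variance trend or using robust eBayes leaves a gene's difference as it was. The mean over probe sets cannot change a gene with a single tested probe set. Plain probe sets only cannot change a gene already read by such a probe set. So 41 of 518 is not the share among values free to turn. The replicate block turned Mrps16 to -0.0096, Mrpl57 to 0.0087, Mrps18b to -0.032, Mrps12 to -0.12, Mrps30 to 0.086 and Mrpl40 to -0.0070. Quantile normalization turned Mrpl57 to 0.043, Mrpl38 to 0.37 and Mrps12 to -0.022. Cyclic loess turned Mrpl38 to 0.18, Mrps12 to -0.046 and Mrpl3 to -0.0066. Array weights turned Mrps12 to -0.066 and Mrps30 to 0.069, and median centring turned Mrps12 to -0.022. The mean over probe sets turned Mrpl3 to -0.0084, Mrpl28 to 0.065 and Mrpl15 to 0.066, and plain probe sets only turned Mrpl15 to 0.40. With an array left out, differences ran from -0.0096 to 0.72 for Mrps16, -0.20 to 0.10 for Mrpl57, -0.11 to 0.12 for Mrpl38, -0.032 to 0.34 for Mrps18b, -0.37 to 0.10 for Mrps18c, -0.25 to 0.15 for Mrpl12 and -0.12 to 0.12 for Mrps12. They ran from -0.46 to 0.46 for Mrps30, -0.22 to 0.031 for Mrpl41, -0.00049 to 0.14 for Mrpl21, -0.38 to 0.15 for Mrpl16, -0.035 to 0.46 for Mrpl32, -0.48 to 0.45 for Mrps15 and -0.22 to 0.44 for Mrpl40. Signals near the bottom of the scale, where most of these genes lie, limit what the arrays can show.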
